A study of Homo sapiens with 40 samples.

Results

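The comparison described here is the enrichment of RNA by the lamin B1 APEX2 construct without a thionucleoside: 2 streptavidin-enriched libraries against the 2 input libraries of the same replicates. They were chosen by their labels and column names (lamin B1 construct, APEX labelling alone, enriched or input) and make up 4 of the 40 libraries of the series. All libraries came from HEK293T, a human embryonic kidney cell line that carries the SV40 large T antigen. In the lamin B1 libraries the cells expressed the engineered peroxidase APEX2 fused to LMNB1. Cells of the APEX-only arm were given biotin-phenol (0.5 mM, 30 min) and then 1 mM hydrogen peroxide, which starts the reaction, for 1 min. The unlabelled arm of the same construct (4 libraries) is the control without labelling; the protocol says of such controls that nucleoside or biotin-phenol steps were left out and all else was done alike. Titles separate it from the APEX-only arm, and the treatment field calls both untreated. In the s6G arm (4 libraries) the same labelling followed 100 µM 6-thioguanosine, with 5 h of thionucleoside in all; the titles of these libraries name s6G and their treatment field names s4U. A further 4 libraries used for comparison carried APEX2 in the mitochondrial matrix, also with biotin-phenol and no thionucleoside. The fit of that comparison held all 16 libraries of the matrix construct. Its other arms were an unlabelled one and 2 with biotin-phenol after 100 µM 6-thioguanosine or 100 µM 4-thiouridine (s4U), with 5 h of thionucleoside in all. Beads received 6.5 µg of RNA and their libraries 15 cycles of PCR, inputs were made from 300 ng with 11 cycles, and all libraries were polyA-selected. The labels do not say how the construct was introduced, whether a line was 1 clone, or what promoter drove it.

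The nuclear lamina is a meshwork of lamins A, B1, B2 and C that lines the inner nuclear membrane, and chromatin that touches it is mostly poor in genes and in transcription. Lamin B1 is held at the membrane by a lipid anchor. APEX2 turns biotin-phenol into a radical that lives for a very short time and attaches biotin to proteins and, less efficiently, to RNA close to the enzyme, so RNA that binds to streptavidin afterwards was near the construct or bound to the beads without a biotin. The unlabelled arm measures that background. The series asks whether electron-rich nucleosides improve such labelling, and the APEX-only arm is the labelling without them.

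The APEX-only libraries held 6504472 and 6216616 counts after enrichment and 5646336 and 6132219 before it. The construct was visible in the counts of its own gene: LMNB1 stood at 2340 to 2861 CPM (counts scaled to the same total in each library) in the APEX-only libraries and at 197 to 340 CPM in the matrix construct's. Transgene and endogenous LMNB1 cannot be told apart in these counts. Of the 9 markers listed for HEK293T cells, none was at 0 in both libraries of a group, although LHX1 and TUBB3 stayed below 1 CPM; the summed level of the list was 1260 to 1490 CPM in enriched and 2010 to 2230 CPM in input libraries. Of 12 markers of liver, blood, fibroblasts, keratinocytes and endothelium, only COL1A1 exceeded 2 CPM in an APEX-only library (24.4 to 70.9 CPM). The summed level of that list was 29.1 to 51.3 CPM in enriched and 38.3 to 71.1 CPM in input libraries, HBB was at 0 in all 4, and 9 of the 12 were at 0 in both inputs. The part of either marker list in the results was not tested. One library of the wider fit stood apart. The first enriched library of the unlabelled arm held 1492243 counts, against 3876715 in the second, and 1.91% of its counts were mitochondrial rRNA, against 0.384% in the second. The spread between libraries is estimated over the 12 lamin B1 libraries together, so this library touches every test below, and counts of lists and of all genes are given with it and, as "without the first unlabelled pair", without it.

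Nuclear noncoding RNAs were among the genes that rose in the enriched fraction, and mRNAs of abundant cytoplasmic proteins among those that fell. Long noncoding RNAs, the host transcript of the miR-17-92 cluster, mRNAs known for introns that are retained in the nucleus, snoRNA host genes and a pair of immediate-early transcription factors were among those called higher. Actins and tubulins, glycolytic enzymes, translation factors, surface receptors and secreted proteins were among those called lower, with many genes of chromosome 19. In edgeR's quasi-likelihood test with enriched and input libraries paired by replicate, 196 of 16525 tested genes were higher after enrichment (1.19%) and 478 were lower (2.89%), at a Benjamini-Hochberg adjusted p below 0.05. The median change was 1.16 on the log2 scale among the higher and -0.955 among the lower genes, and 145 and 201 of them changed by more than 2-fold. Of the 674 called genes, 666 had enriched and input libraries that did not overlap in CPM, which was also true of 53.8% of all tested genes.

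The number of calls depended on which libraries set the spread. Without the first unlabelled pair, 2112 genes were higher (11.9% of 17797) and 3150 lower (17.7%), and these held 195 of the 196 and all of the 478 genes above. With the 4 APEX-only libraries alone there were 2240 and 2791. With the replicate block left out 68 and 169 genes were called, and without either the first or the second APEX-only pair 0 were called in either direction, although 1243 and 1200 genes had an unadjusted p under 0.05. The balance of directions depended on the scaling: 29.1% of calls were higher with TMM, and 63.6% (271 higher, 155 lower) with total counts, a scaling that shifted the median over all genes by 0.14, to 0.19. CPM values are shares of a library. In bulk RNA, fewer cells with a transcript and less of it per cell cannot be told apart.

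**Figure D1:**
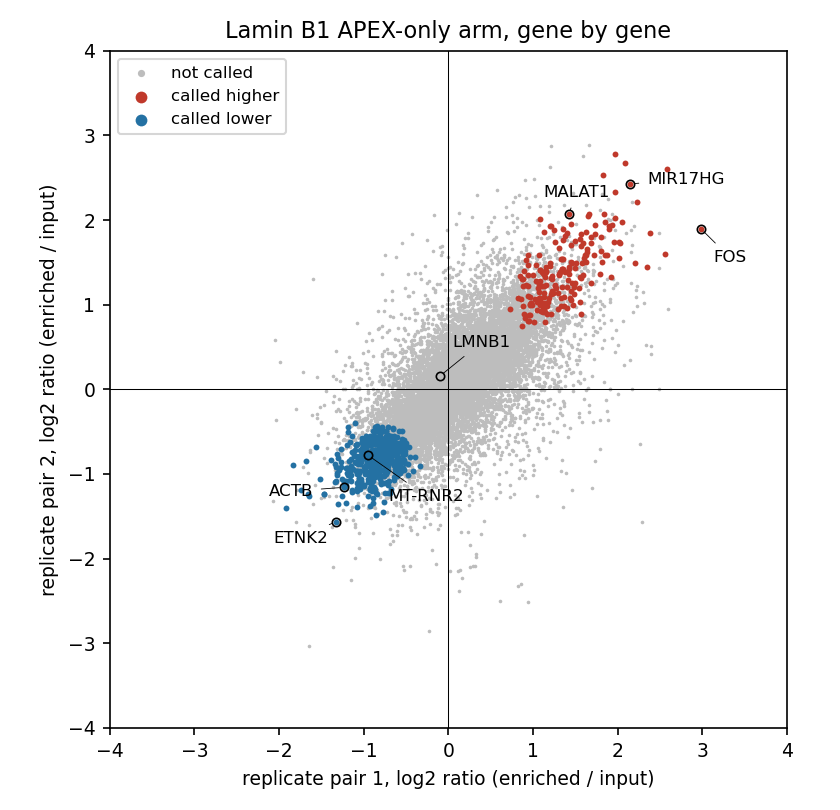
Log2 ratio of enriched to input CPM (0.5 CPM added to each) in replicate pair 1 (x axis) and pair 2 (y axis) of the APEX-only arm, for 12365 genes whose mean log2 CPM was 2 or more, of which 2 lie outside the axes. Red points are genes called higher, blue points genes called lower and grey points genes not called; called genes lie in the quadrants where both pairs moved the same way.

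The replicate pairs moved together. Across all tested genes the log2 ratio of pair 1 and that of pair 2 had the same sign for 73% of genes, with a Pearson r of 0.492 across genes, and r was 0.685 among the 12365 genes whose mean log2 CPM was 2 or more. Genes are not independent replicates, and the libraries of a pair share RNA and handling, so these values are descriptions.

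MIR17HG, the primary transcript from which the oncogenic miR-17-92 cluster is cut, showed one of the largest changes. It stood at 134 and 96 CPM in the enriched libraries and at 29.8 and 17.4 CPM in the inputs. Both enriched libraries were above both inputs, and in the unlabelled arm the groups overlapped, at 62.3 and 46.9 CPM after enrichment and 51.1 and 21.3 CPM before it, with each pair higher after it (0.75 ± 0.27, adjusted p = 0.177). The log2 fold change was 2.17 ± 0.27 (SE, n = 2 pairs, adjusted p = 0.0212). MIR17HG lies on chromosome 13, and RefSeq (GRCh38.p14) places 12 mature miRNAs from 6 hairpins inside it. The libraries hold the polyadenylated host transcript, not the mature miRNAs. The main strand of each hairpin is printed to show what the host encodes, 5′ to 3′ with the seed (bases 2 to 8) in capitals:
hsa-miR-17-5p: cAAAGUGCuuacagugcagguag
hsa-miR-20a-5p: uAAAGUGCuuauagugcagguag
hsa-miR-18a-5p: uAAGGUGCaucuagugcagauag
hsa-miR-19a-3p: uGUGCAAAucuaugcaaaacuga
hsa-miR-19b-3p: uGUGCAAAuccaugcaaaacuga
hsa-miR-92a-3p: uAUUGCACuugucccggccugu

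The seeds fall into 4 kinds: miR-17 and miR-20a share AAAGUGC, miR-19a and miR-19b share GUGCAAA, and miR-18a and miR-92a each have their own. MIR222HG, host of another miRNA pair with roles in the cell cycle, changed by 0.84 ± 0.40 in the unlabelled arm. The median of the tested miRNA hosts there was 0.68. In the APEX-only arm MIR222HG was at 55.3 and 69.3 CPM after and 17.5 and 22.7 CPM before enrichment (1.49 ± 0.36, adjusted p = 0.0493). These were the 2 called genes among the 22 tested miRNA hosts, whose median change was 1.08 against 0.04 for all tested genes; without the first unlabelled pair 7 were higher and 1 lower.

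Of 29 tested nuclear long noncoding RNAs, 7 were higher and 0 lower, with a median change of 1.05, and 28 of the 29 had a positive estimate. MALAT1, an abundant RNA of nuclear speckles, stood at 237 and 401 CPM in the enriched libraries and at 87.8 and 94.7 CPM in the inputs. The groups did not overlap, and the fold change was 1.62 ± 0.38 on the log2 scale (adjusted p = 0.0439). With the first unlabelled pair left out, the estimate was 1.57 and the call was lost (adjusted p = 0.165). NEAT1, the scaffold of paraspeckles, stood at 94.1 and 184 CPM after and 36.8 and 63.1 CPM before enrichment, a change of 1.31 ± 0.18 (adjusted p = 0.0212). NEAT1 also changed in the unlabelled arm, by 1.5, where it was at 135 and 230 CPM on the beads and at 44.5 and 89.7 CPM in the input. GABPB1-AS1, an antisense RNA of the GABPB1 locus, was at 52.4 and 65 CPM after and 16.5 and 20.7 CPM before enrichment (1.52 ± 0.37, adjusted p = 0.0499), with an estimate of -0.05 in the unlabelled arm. No source used here gives the strand setting of the counting, so reads of GABPB1-AS1 and its partner, and of other overlapping genes, cannot be told apart. Among 651 genes named as antisense or divergent transcripts, 8 were higher (1.23%, near the 1.19% of all tested genes) and 0 lower with a median of 0.54, against 85 and 11 without the first unlabelled pair. In that group THAP9-AS1 was at 81.6 and 95.9 CPM after and 24.3 and 26.4 CPM before enrichment (1.66 ± 0.23, adjusted p = 0.0212). Over all 957 tested genes that RefSeq lists as lncRNA, 19 were higher (1.99%) and 0 lower, with a median of 0.56. Of 13222 protein-coding genes 156 were higher (1.18%) and 472 lower (3.57%), with a median of -0.03 (0.12 with total counts). Much of the lncRNA shift was also present on the unlabelled beads. Unlabelled medians were 0.46 for these lncRNAs, 0.38 for genes named as antisense or divergent, and -0.09 for protein-coding genes. Without the first unlabelled pair 18 of the 29 nuclear lncRNAs were higher and 0 lower, 147 of the lncRNAs of RefSeq were higher and 17 lower, and 1626 protein-coding genes were higher and 3038 lower. Of 180 tested LINC genes 0 were called by edgeR in either direction, with a median of 0.69 (0.61 in the unlabelled arm). Without the first unlabelled pair 24 of 177 were higher and 3 lower. Over all genes 11.9% were higher and 17.7% lower in that fit. The LINC and antisense counts of higher genes were near the first of these shares.

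Genes known for detained introns, which hold their spliced-but-incomplete mRNA in the nucleus, and genes of speckle proteins had the highest share of higher calls of any list. Of 53 tested, 19 were higher (35.8%) and 0 lower, with a median of 0.73; without the first unlabelled pair 38 were higher and 1 lower. PAXBP1, a partner of PAX3 and PAX7, led the list at 291 and 315 CPM in the enriched libraries and 97.6 and 88.2 CPM in the inputs, and its unlabelled enriched libraries were at 70.4 and 122 CPM. Its change was 1.56 ± 0.25 (adjusted p = 0.0222). CCNL1, the cyclin L1 that works with splicing kinases, rose from 83.1 and 95.7 CPM to 275 and 288 CPM (1.51 ± 0.21, adjusted p = 0.0212). SREK1, a regulator of splicing with an SR domain, rose from 130 and 102 CPM to 451 and 264 CPM (1.44 ± 0.18, adjusted p = 0.0212). The list was not uniform. SRRM2, SON and THRAP3, which code for large speckle proteins, had estimates of -0.62, -0.27 and -0.28 and were not called; these 3 were chosen after their values were seen, as the lowest of the list. Of 35 SR proteins and hnRNPs, 3 were higher and 1 lower with a median of 0.08, against 8 and 6 without the first unlabelled pair. SRSF11 stood at 1070 and 993 CPM after and 454 and 451 CPM before enrichment (1.04 ± 0.19, adjusted p = 0.0255), SRSF10 at 683 and 619 against 321 and 265 CPM (1.01 ± 0.22, adjusted p = 0.0371), and PTBP2, the neural relative of the splicing repressor PTBP1, at 95.9 and 105 against 43.4 and 40.8 CPM (1.12 ± 0.22, adjusted p = 0.0283).

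Of 26 tested snoRNA host genes, whose introns carry small nucleolar RNAs and whose spliced transcripts are mostly broken down during translation, 5 were higher and 0 lower, with a median of 0.50; without the first unlabelled pair 13 were higher and 1 lower. GAS5 was at 424 and 439 CPM after and 158 and 161 CPM before enrichment (1.30 ± 0.23, adjusted p = 0.0250), and ZFAS1 at 27.5 and 32 against 9.74 and 9.46 CPM (1.49 ± 0.30, adjusted p = 0.0319). Both were also above input in the unlabelled arm, GAS5 by 1.15 and ZFAS1 by 1.31, and the median of the list there was 0.62. None of the differences between the arms passed the test in the 12-library fit.

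FOS and EGR1, transcription factors that cells switch on within minutes of a signal and whose mRNAs are short-lived, were the 2 called genes among 49 tested immediate-early and other short-lived genes, whose median was 0.19; without the first unlabelled pair 11 were higher and 5 lower. FOS stood at 130 and 29.3 CPM in the enriched libraries and at 15.9 and 7.50 CPM in the inputs. The enriched libraries differed more than 4-fold between replicates, and each was above both inputs; the change was 2.38 ± 0.37 (adjusted p = 0.0222). In the unlabelled arm FOS was at 3.35 and 3.61 CPM on the beads and at 2.81 and 1.83 CPM in the inputs. EGR1 was at 50.3 and 36.5 CPM after and 12.6 and 10.6 CPM before enrichment (1.75 ± 0.36, adjusted p = 0.0343). The unlabelled enriched libraries held 0 counts of EGR1, which allows levels of up to 2.01 and 0.774 CPM, and its unlabelled inputs held 12 and 26 counts. Other genes with large changes had no list of their own. RORA, an orphan nuclear receptor with a long gene, rose from 11.0 and 9.62 CPM to 44.4 and 40.7 CPM (1.90 ± 0.33, adjusted p = 0.0245), and its unlabelled beads held 12.7 and 6.96 CPM. SOCS4, a suppressor of cytokine signalling, rose from 41.1 and 49.1 CPM to 155 and 189 CPM (1.78 ± 0.29, adjusted p = 0.0238), and SAT1, which acetylates polyamines, from 18.4 and 29.4 CPM to 96.2 and 80.8 CPM (1.77 ± 0.29, adjusted p = 0.0236). For both, the unlabelled enriched libraries (22.1 and 54.7 CPM for SOCS4, 18.8 and 31.7 CPM for SAT1) lay below the APEX-only ones.

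**Figure D2:**
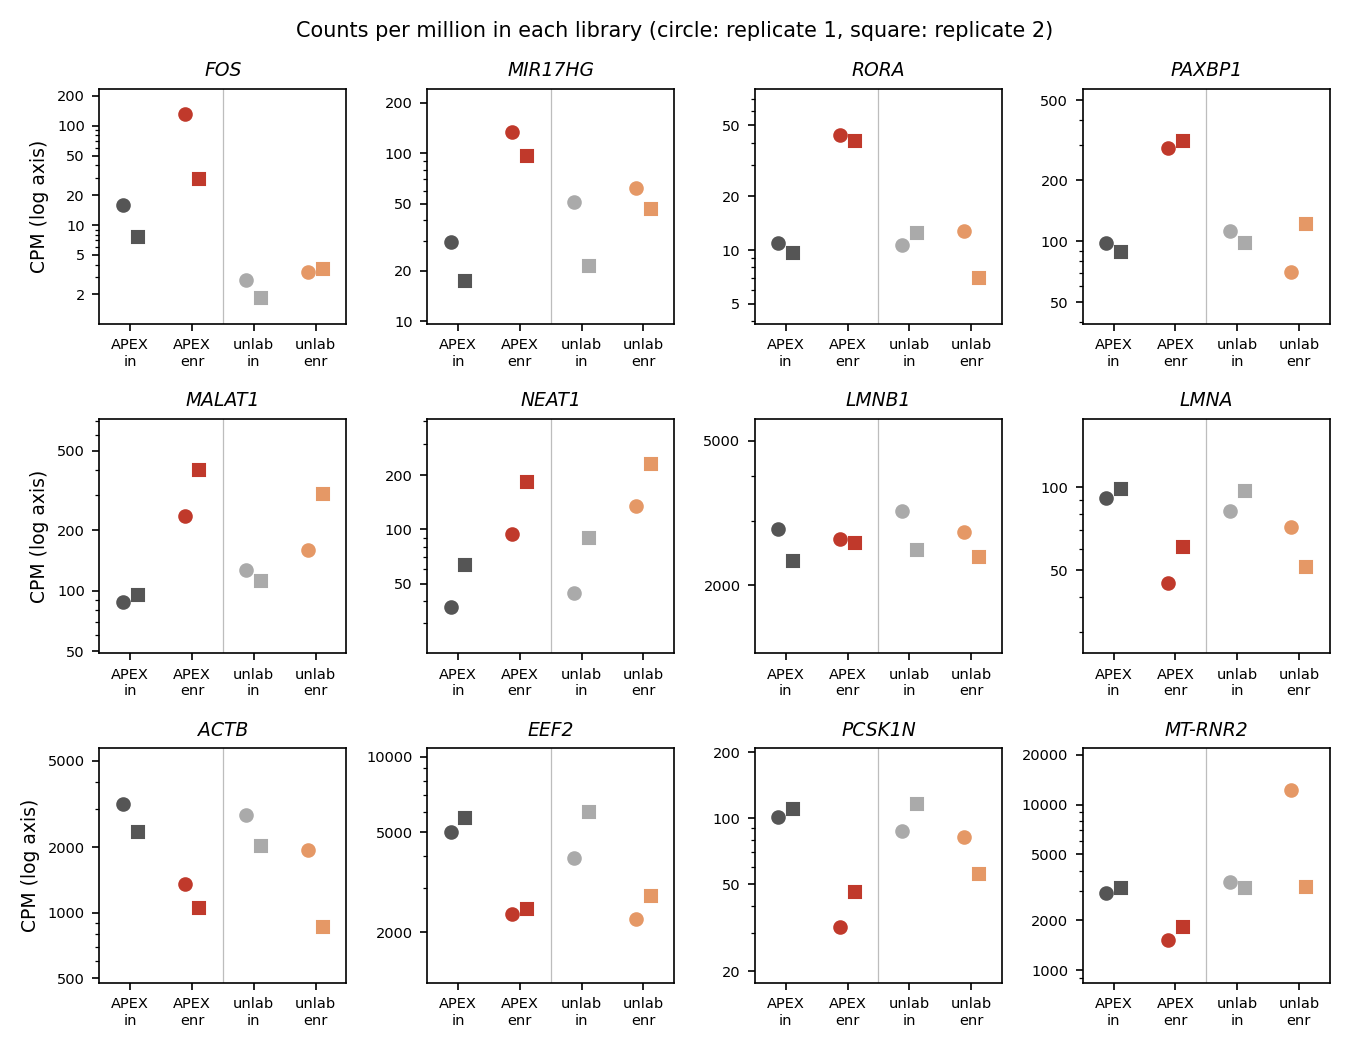
CPM of 12 genes on a log axis in the input and enriched libraries of the APEX-only and unlabelled arms of the lamin B1 construct; circles are replicate 1 and squares replicate 2. FOS, MIR17HG, RORA, PAXBP1, MALAT1 and NEAT1 lie higher after APEX-only enrichment, ACTB, EEF2, PCSK1N and LMNA lower, LMNB1 overlaps, and MT-RNR2 stands at 12189 CPM in the first unlabelled enriched library.

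LMNB1 itself, whose mRNA encodes the bait, was not called: it was at 2678 and 2613 CPM after and 2861 and 2340 CPM before enrichment, and the groups overlapped (-0.11 ± 0.19, adjusted p = 0.797). Its estimate was 0.04 with total-count scaling. Of 25 tested genes of lamins and nuclear envelope proteins, 0 were higher and 3 lower, with a median of -0.07 that was 0.07 with total counts; without the first unlabelled pair 2 were higher and 8 lower. EMD, which encodes the inner membrane protein emerin, fell from 176 and 172 CPM to 91.3 and 95.7 CPM (-1.04 ± 0.19, adjusted p = 0.0259). LMNA, the gene of lamins A and C, fell from 91.7 and 98.7 CPM to 45.05 and 60.97 CPM (-1 ± 0.22, adjusted p = 0.0371), and LMNB2 from 674 and 663 CPM to 467 and 415 CPM (-0.74 ± 0.17, adjusted p = 0.0439). Of 32 nucleoporin genes 1 was higher (NUP42, 103 and 83.3 against 44.1 and 44.7 CPM, 0.92 ± 0.21) and 1 lower, and of 29 importins and exportins 1 was higher (KPNA5, 70.1 and 70.5 against 30.3 and 24.6 CPM, 1.22 ± 0.26) and 1 lower. With the first unlabelled pair left out, the counts were 4 higher and 9 lower for nucleoporins and 2 and 7 for importins and exportins.

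The lower genes were led by mRNAs of the cytoskeleton and of housekeeping enzymes. Of 18 tested actin and tubulin genes and their close partners, 9 were lower (50%) and 0 higher, with a median of -0.86; without the first unlabelled pair 15 were lower and 0 higher, and with total counts 6 and 0. ACTB, cytoplasmic beta-actin, fell from 3186 and 2363 CPM to 1352 and 1058 CPM (-1.34 ± 0.19, adjusted p = 0.0212). Both enriched libraries were below both inputs, and on the unlabelled beads ACTB was at 1953 and 859 CPM, against 2811 and 2041 CPM in the unlabelled inputs. TUBB4A, a beta-tubulin, fell from 49.6 and 83.8 CPM to 23.98 and 39.1 CPM (-1.22 ± 0.23, adjusted p = 0.0269), and TUBG1, the gamma-tubulin of microtubule-organising centres, from 244 and 256 CPM to 124 and 138 CPM (-1.07 ± 0.17, adjusted p = 0.0222). FLNC, which crosslinks actin, fell from 115 and 197 CPM to 40.0 and 93.8 CPM (-1.43 ± 0.21, adjusted p = 0.0212), and JUP, the plakoglobin of cell junctions, from 142 and 200 CPM to 57.3 and 77.7 CPM (-1.48 ± 0.33, adjusted p = 0.0379).

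Of 18 glycolysis genes 7 were lower and 0 higher, with a median of -0.65; without the first unlabelled pair 13 were lower and 0 higher, and with total counts 2 and 0. The aldolase gene ALDOA fell from 1596 and 1677 CPM to 691 and 881 CPM (-1.21 ± 0.18, adjusted p = 0.0212), and GAPDH from 1524 and 1625 CPM to 866 and 1057 CPM (-0.86 ± 0.18, adjusted p = 0.0343). The glucose transporter gene SLC2A1, also on that list, fell by 1.13 ± 0.20 (adjusted p = 0.0250). Of 37 cytosolic translation factors 5 were lower and 0 higher, against 17 and 2 without the first unlabelled pair and 2 and 0 with total counts. EEF2, which moves the ribosome along the mRNA, stood at 2368 and 2469 CPM after and 4996 and 5679 CPM before enrichment (-1.28 ± 0.18, adjusted p = 0.0212). EIF5A, the only protein known to carry hypusine, was at 459 and 442 against 866 and 870 CPM (-1.09 ± 0.21, adjusted p = 0.0268). Cytosolic ribosomal protein mRNAs did not follow them: of 79 tested, 3 were lower and 1 higher, with a median of -0.06 (0.09 with total counts), and without the first unlabelled pair 19 were lower and 9 higher. RPL8 was at 1521 and 1877 CPM after and 2865 and 2974 CPM before enrichment (-0.93 ± 0.20, adjusted p = 0.0341), and RPS2 changed by -0.81. RPS2 shares sequence with pseudogenes that were also called lower (RPS2P7 and RPS2P46), and reads of a gene and its copies may have been split between them.

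Calls among the mRNAs of proteins made at the endoplasmic reticulum were for lower levels in the 12-library fit. Over all tested genes 2.89% were lower and 1.19% higher in that fit. Medians in the unlabelled arm were below 0 too. They were -0.32 for secreted and matrix genes, -0.46 for receptors, -0.16 for the endoplasmic reticulum and -0.13 for lysosomes. The last 2 lists had APEX-only medians of -0.17 and -0.28. Among secreted, matrix and adhesion genes 5 of 36 were lower and 0 higher (median -0.55), with the fibrillar collagen gene COL2A1 at 36.7 and 86.9 CPM after and 71.2 and 182 CPM before enrichment (-1.15 ± 0.19, adjusted p = 0.0242). In COL2A1 the enriched library of pair 2 was above the input of pair 1, and within each pair the enriched library was lower. Its unlabelled estimate was -0.93 ± 0.21. Among surface receptors 7 of 42 were lower and 0 higher (median -0.41), led by CELSR1, an atypical cadherin of planar polarity (-1.20 ± 0.21, adjusted p = 0.0245), and PTPRF, a receptor phosphatase (-1.11 ± 0.20, adjusted p = 0.0250). Among 42 genes of channel, folding and glycosylation proteins of the endoplasmic reticulum 3 were lower and 0 higher. They were KDELR1, which returns chaperones from the Golgi, CALR and P4HB, at -1.15, -1.04 and -0.94. Their unlabelled estimates were -0.34, -1.02 and -0.55. Among 32 lysosomal genes 4 were lower and 0 higher, with the protease gene CTSD falling from 53.8 and 51.4 CPM to 24.3 and 22.2 CPM. Cholesterol genes had 3 of 26 lower (among them DHCR7 and SCAP) and 0 higher, heat shock genes 3 of 20 lower and 0 higher, and mitotic genes 3 of 39 lower and 1 higher. Without the first unlabelled pair the lower and higher counts were 22 and 0 for secreted and matrix genes, 22 and 4 for receptors, 16 and 2 for the endoplasmic reticulum, 14 and 0 for lysosomes, 12 and 4 for cholesterol, 5 and 4 for heat shock and 9 and 13 for mitosis. Calls over all tested genes also rose without that pair, to the shares given above. With total counts 1 secreted gene, 2 receptors, 3 genes of the endoplasmic reticulum, 0 lysosomal and 2 cholesterol genes were lower.

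Several of the largest decreases were of genes on no list. ETNK2, an ethanolamine kinase, was at 8.92 and 9.97 CPM after and 23.2 and 30.5 CPM before enrichment (-1.64 ± 0.29, adjusted p = 0.0250), and its unlabelled arm had an estimate of 0.00. PCSK1N, an inhibitor of the prohormone convertase PC1, fell from 101 and 111 CPM to 32.0 and 46.0 CPM (-1.61 ± 0.25, adjusted p = 0.0222). RAVER1, a nuclear protein that binds PTBP1 and vinculin, fell from 109 and 89.4 CPM to 39.1 and 37.5 CPM (-1.51 ± 0.27, adjusted p = 0.0255). NOC4L, a nucleolar factor of the small ribosomal subunit, fell from 88.0 and 82.8 CPM to 41.4 and 31.4 CPM (-1.39 ± 0.20, adjusted p = 0.0212).

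**Figure D3:**
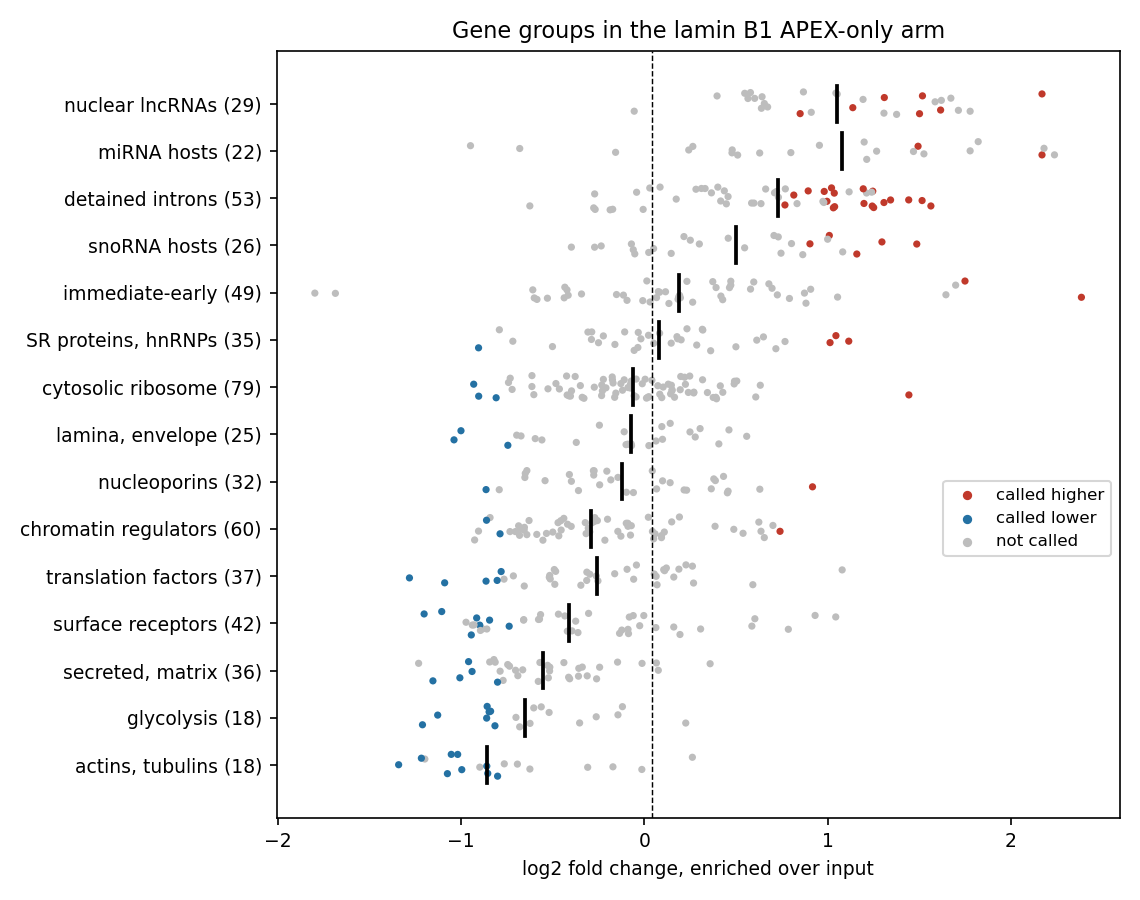
Log2 fold change of each tested gene of 15 groups (number tested in brackets) in the APEX-only arm, enriched over input. Red points are called higher, blue points called lower and grey points not called; black bars are group medians (1.05 for nuclear lncRNAs, -0.86 for actins and tubulins) and the dashed line is the median of all tested genes (0.04).

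Transcripts of the mitochondrial genome, which stay in another compartment than the lamina, made up 2.91% and 3.99% of counts in the enriched and 3.47% and 4.38% in the input libraries (3.45% ± 0.759 and 3.92% ± 0.641, SD, n = 2), a difference of -0.473 percentage points (exact two-sided permutation test p = 0.667, where 0.33 is the smallest this design allows). That test ignores the pairing; the difference was -0.557 points in pair 1 and -0.39 in pair 2. The 95% Wilson intervals of the 4 shares did not overlap (2.90% to 2.93% and 3.97% to 4.00% for the enriched libraries), and they cover counting error only. The unlabelled beads held 6.38% and 5.48%. Of the 13 mitochondrial mRNAs 1 was higher and 0 lower, with a median of -0.30, and without the first unlabelled pair 1 was higher and 6 lower. The higher one was MT-ND6, whose coding strand is opposite to that of the other mitochondrial mRNAs, at 1129 and 1996 CPM after and 680 and 1037 CPM before enrichment (0.70 ± 0.17, adjusted p = 0.0499); it also rose in the unlabelled arm, by 1.47. MT-CO1 was at 5319 and 8719 CPM after and 7044 and 9724 CPM before enrichment, and the groups overlapped (-0.42 ± 0.19, adjusted p = 0.234; without the first unlabelled pair -0.47 ± 0.16, adjusted p = 0.0133). MT-RNR2, the large mitochondrial rRNA, was at 1514 and 1828 against 2929 and 3130 CPM without overlap, and was not called (-1.01 ± 0.32, adjusted p = 0.105), whereas it was called without the first unlabelled pair (-1.05 ± 0.15, adjusted p = 1.02e-10). RN7SL2, the RNA of the signal recognition particle and named for its level in the library that stood apart, was at 0.615 and 0.965 CPM after and 50.1 and 56.7 CPM before enrichment and was not called in the 12-library fit (-6.18 ± 2.54, adjusted p = 0.285), but was without the first unlabelled pair (-6.23 ± 0.30, adjusted p = 5.39e-94). It stood at 696 CPM in the first unlabelled enriched library and at 5.93 CPM in the second.

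Calls were unevenly spread over the chromosomes. Of 998 tested genes on chromosome 19, 105 were lower (10.5%) and 2 higher (0.200%), with a median of -0.34; without the first unlabelled pair 408 were lower and 69 higher. Chromosome 22 had 28 of 367 lower (7.63%) and a median of -0.28, chromosome 17 had 49 of 884 lower (5.54%), and chromosome 16 had 32 of 685 lower (4.67%). Chromosome 13 had the highest share of higher genes, 9 of 274 (3.28%), with 1 lower and a median of 0.21, and chromosomes 4 and 5 had medians of 0.17 and 0.18. With the first unlabelled pair left out, chromosome 13 had 56 higher and 18 lower genes, chromosome 22 had 20 and 136, chromosome 17 had 67 and 272, and chromosome 16 had 44 and 213. Chromosome 19 carries the most protein-coding genes per megabase in RefSeq (24.8), followed by chromosome 17 (14.1), and chromosome 13 the fewest (2.96). In the unlabelled arm the medians of chromosomes 19 and 13 were -0.13 and -0.08, and in the s6G arm 0.10 and -0.06. With total counts the APEX-only medians were -0.20 and 0.35, against 0.19 for all genes. Genes on 1 chromosome are not independent of each other in type or sequence, and no test was made.

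**Figure D4:**
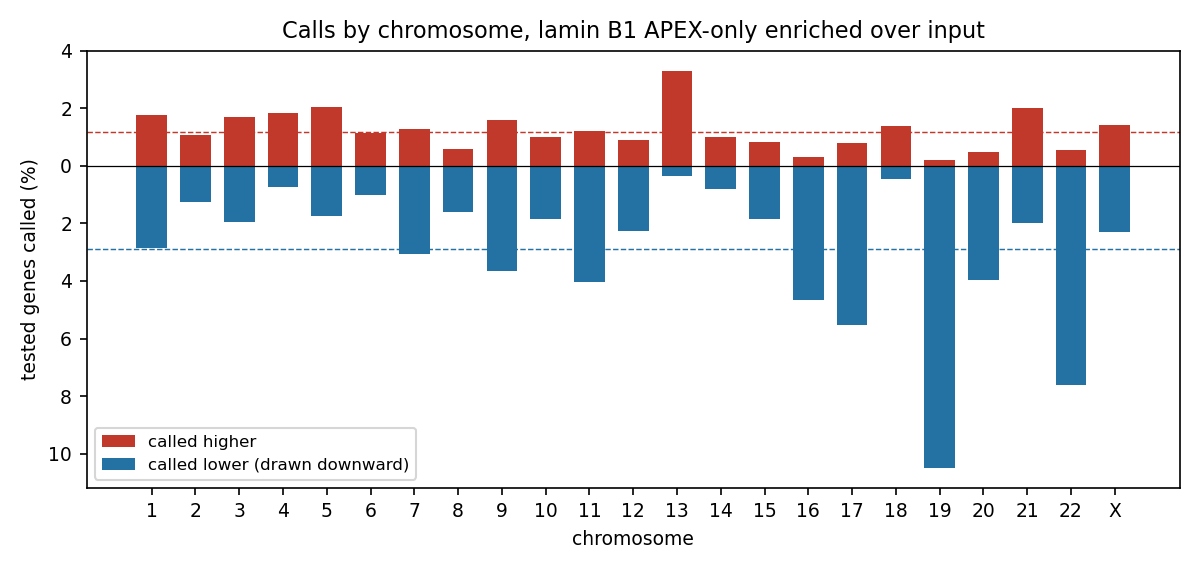
Percentage of tested genes called higher (red, upward) and lower (blue, downward) after APEX-only enrichment, by chromosome; dashed lines give 1.19% and 2.89% over all tested genes. The bar of lower genes is longest for chromosome 19 (10.5%) and the bar of higher genes for chromosome 13 (3.28%).

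On chromosome 19 the zinc finger genes went the other way. The 184 tested genes with a numbered ZNF symbol there, which mostly encode repressors with a KRAB domain, had a median of 0.49, with 2 higher and 1 lower, whereas the other 814 genes had a median of -0.49, with 0 higher and 104 lower. Without the first unlabelled pair the counts were 49 higher and 17 lower for the former and 20 and 391 for the latter. ZNF121 rose from 74.0 and 72.9 CPM to 196 and 262 CPM (1.49 ± 0.20, adjusted p = 0.0212) and was at 63.7 and 69.1 CPM on the unlabelled beads. Over all chromosomes, 14 of 417 numbered ZNF genes were higher and 3 lower (116 and 51 without the first unlabelled pair), with a median of 0.42, against -0.11 in the unlabelled arm and 0.57 in the s6G arm. Among the lower ones were ZNF687 and ZNF574, at -1.17 ± 0.20 and -1.03 ± 0.22 (adjusted p = 0.0243 and 0.0368).

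The change also varied with the base composition of promoters and with gene length. Among 10831 tested protein-coding genes with a promoter in the reference table (300 bases, 250 before to 50 after the start), split into 5 equal bins, the bin of lowest GC content (27% to 57%) had 31 higher, 43 lower and a median of 0.14, and the bin of highest (73.7% to 94%) had 14 higher, 136 lower and a median of -0.21; without the first unlabelled pair they had 323 and 314 in the former and 156 and 720 in the latter. Unlabelled medians for the same bins were 0.02 and -0.22, so the order was the same on the unlabelled beads. Within each bin chromosome 19 had a lower median than the other chromosomes, by the most in the last (-0.70 against -0.19). By span of the gene in the genome, the shortest of 5 equal bins had 22 higher, 145 lower and a median of -0.19, and the longest 21 higher, 30 lower and a median of 0.02; the unlabelled medians ran the other way, from 0.01 to -0.15. With the first unlabelled pair left out, the shortest had 213 higher and 788 lower and the longest 272 and 438. Promoters of the named genes with the largest changes show both ends of the range, and are printed 5′ to 3′ on the gene's strand from RefSeq (GRCh38.p14) with each CG dinucleotide in capitals. The table holds 1 start per gene, which lay within 300 bases of the outer end of the gene's RefSeq span for 9326 of the 10831 genes (86.1%). The printed windows were chosen as the lowest GC content among the higher and the highest among the lower genes. The window of RORA (chr15:60627481-60627780, minus strand, 42% GC) holds 1 CG and that of ETNK2 (chr1:204151995-204152294, minus strand, 83.7% GC) holds 45, against a median of 14 in all 27305 promoters of the table, of which 95.8% hold at least 1. The ETNK2 window is at the outer end of its gene. That of RORA is at an internal start of a gene that RefSeq places from 60488284 to 61229302, and which start these cells use was not tested.
RORA: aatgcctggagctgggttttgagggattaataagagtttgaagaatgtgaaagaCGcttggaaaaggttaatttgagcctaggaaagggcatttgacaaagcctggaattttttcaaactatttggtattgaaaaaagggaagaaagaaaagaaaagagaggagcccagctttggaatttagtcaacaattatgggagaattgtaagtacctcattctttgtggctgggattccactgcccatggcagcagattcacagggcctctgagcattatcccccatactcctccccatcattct
ETNK2: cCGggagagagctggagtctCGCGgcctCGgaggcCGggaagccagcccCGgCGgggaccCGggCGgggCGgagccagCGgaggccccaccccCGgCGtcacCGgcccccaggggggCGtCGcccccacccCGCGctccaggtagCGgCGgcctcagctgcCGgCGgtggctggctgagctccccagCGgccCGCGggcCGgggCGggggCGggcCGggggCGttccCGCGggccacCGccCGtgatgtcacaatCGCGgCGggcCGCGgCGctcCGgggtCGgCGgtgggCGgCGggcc

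The unlabelled arm gives the background of the beads. On its own it had 5 genes called by edgeR (0.0303% of 16525): FAM98B, NEAT1, MT-ND6, RNA5SP202 and a lncRNA without a symbol, all higher. These genes are named because they were so few, with their values already seen. FAM98B was at 530 and 309 CPM on the unlabelled beads and 69.5 and 52.3 CPM in their inputs, and at 168 and 81.1 against 67.1 and 59.4 CPM in the APEX-only arm. Of the 196 genes called higher in the APEX-only arm, 124 had a positive estimate in the unlabelled arm, with a median of 0.21; of the 478 called lower, 451 had a negative one, with a median of -0.44. The difference between the 2 enrichments called 0 of 16525 genes (0%) in the 12-library edgeR fit, where 2217 had an unadjusted p under 0.05, while DESeq2 called 103 higher and 21 lower. Without the first unlabelled pair, 1774 of 17797 genes (9.97%) were more enriched in the APEX-only arm and 1342 (7.54%) less. The unlabelled arm is then 1 pair, assumed to vary like the others, and this alternative was added after the data were seen.

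In that fit with the second unlabelled pair alone, 107 of the 196 higher genes were also more enriched than on unlabelled beads, and 1 was less. They included RORA (difference of 2.64 ± 0.47, adjusted p = 2.11e-06), GABPB1-AS1 (2.58 ± 0.37, adjusted p = 8.74e-10), SOCS4 (1.54 ± 0.27, adjusted p = 1.22e-06), SREK1 (1.21 ± 0.24, adjusted p = 3.06e-05) and MIR17HG (0.92 ± 0.30, adjusted p = 0.0190). FOS (1.37 ± 0.69), NEAT1 (-0.15 ± 0.25), MALAT1 (0.06 ± 0.92), GAS5 (-0.37 ± 0.23), ZFAS1 (0.15 ± 0.41) and MIR222HG (-0.12 ± 0.32) did not pass. The 196 and the 478 genes were chosen by the APEX-only change, which is itself part of this difference. That choice pushes their differences towards the same direction, so the counts of this paragraph are not separate evidence. Of the 478 lower genes, 119 were also less enriched than on unlabelled beads and 1 was more. ETNK2 (-1.86 ± 0.38, adjusted p = 5.78e-05) was among them, and ACTB (-0.19 ± 0.25), EEF2 (-0.27 ± 0.26) and LMNA (-0.19 ± 0.27) were not.

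The mRNAs of the ribosome and the respiratory chain were mostly less enriched than on the unlabelled beads in this difference, while from input to APEX-only beads they went both ways. Of 79 cytosolic ribosomal protein genes 70 were less enriched than on the unlabelled beads and 0 more, with a median difference of -1.11; of 76 mitochondrial ribosomal protein genes 45 were less and 0 more (median -0.77), and of 84 nuclear-encoded respiratory chain and ATP synthase genes 52 were less and 1 more (median -0.94). In the same fit the counts higher and lower than input were 9 and 19, 9 and 19, and 16 and 13 in these lists. Over all genes the median difference was 0.06. In CPM ratios the median of the cytosolic ribosomal list was -0.15 and 0.31 in the APEX-only pairs and 0.21 and 0.86 in the unlabelled pairs, so that the second unlabelled pair was above the others, and the first lay between the 2 APEX-only pairs. On the other side, the median difference was 0.18 for 60 chromatin regulators and 0.34 for 49 immediate-early genes. From input to APEX-only beads the medians in the same fit were -0.34 and 0.15, so the chromatin list was not enriched over input. In CPM ratios the chromatin median was -0.11 and -0.23 in the APEX-only pairs and 0.09 and -0.57 in the unlabelled pairs. The first unlabelled pair was thus above both APEX-only pairs, and the second, which sets this difference, was below them. Chromosome 19 had 89 genes more and 111 less enriched of 998, with a median of -0.08.

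**Figure D5:**
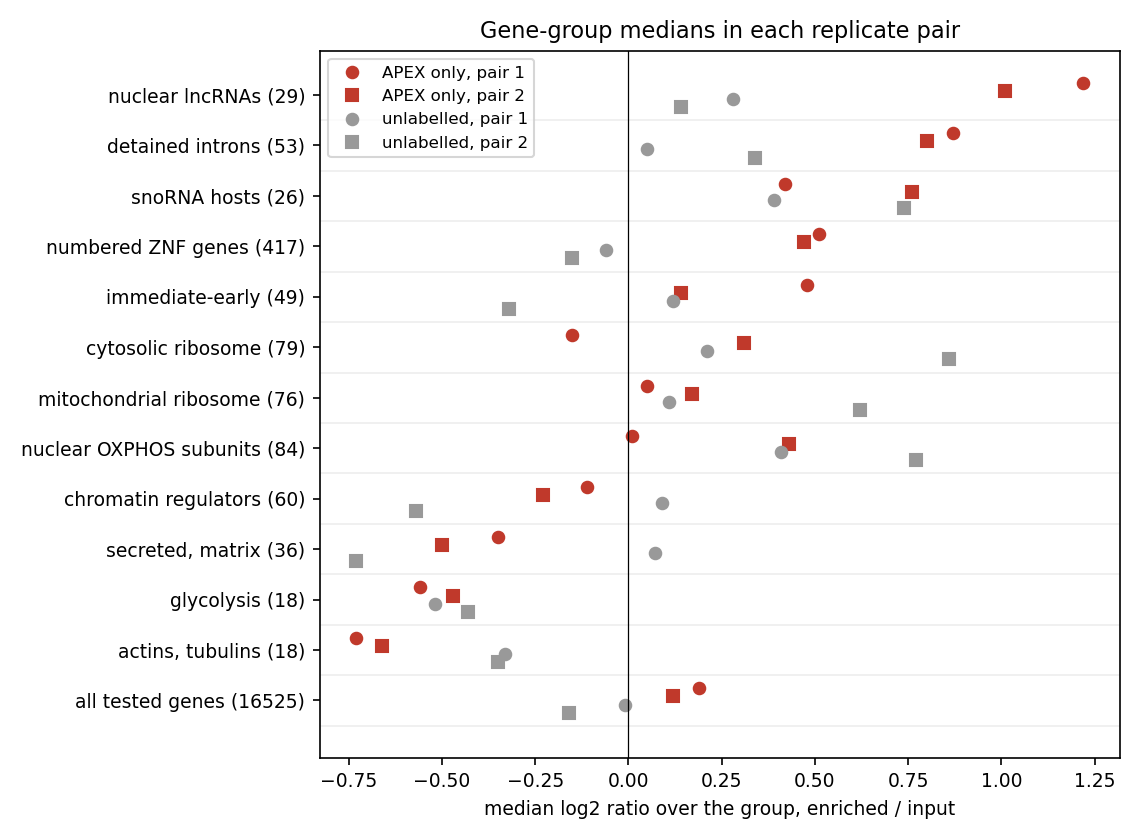
Median log2 ratio of enriched to input CPM over the genes of 12 groups and over all tested genes, for each replicate pair of the APEX-only arm (red) and the unlabelled arm (grey); circles are pair 1 and squares pair 2. Nuclear lncRNAs lie at 1.22 and 1.01 in the APEX-only and at 0.28 and 0.14 in the unlabelled pairs, while cytosolic ribosomal protein genes lie at -0.15 and 0.31 against 0.21 and 0.86.

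The s6G arm of the same construct is compared here only for the genes above. Of the 196 higher genes 191 had a positive s6G estimate (median 1.14), and of the 478 lower genes 429 had a negative one (median -0.87). No gene differed between these enrichments in the 12-library edgeR fit (0% of 16525, with 2663 at an unadjusted p under 0.05; DESeq2 called 397 higher and 426 lower in the APEX-only arm), and 4105 did in a fit of those 8 libraries alone, of which 2041 were more enriched in the APEX-only arm. The chromatin regulators had a median of -0.29 in the APEX-only and 0.64 in the s6G arm. The 13 mitochondrial mRNAs had medians of -0.30 and -1.69.

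The matrix construct, labelled the same way at another place in the cell, differed from the lamin B1 construct at 66 genes more enriched with lamin B1 (0.372% of 17726) and 58 less (0.327%), in a fit of 28 libraries with the same block. Of the 58, 15 were genes of the mitochondrial genome, the RNA that the matrix construct faces, and 2 were pseudogenes of such genes. The 58 also held 8 genes of SR proteins and hnRNPs, and 0 of that list were more enriched with lamin B1. Its median difference was -0.57, with medians of 0.54 for the matrix construct and 0.08 for lamin B1. MT-CO1 was at 210042 and 170228 CPM on the matrix construct's beads and at 10433 and 6216 CPM in its inputs, and the difference between constructs was -5.69 ± 0.54 (adjusted p = 4.97e-11). All 66 genes had positive estimates for lamin B1, and 61 of them had negative ones for the matrix construct. The 66 were chosen by the difference of these 2 estimates, so the signs were largely set by that choice. Of the 66, 34 were also called higher in the 12-library fit. ZNF121 had the largest difference among those with a mean log2 CPM of 4 or more (2.33 ± 0.33, adjusted p = 1.96e-06): it was at 31.6 and 35.0 CPM on the matrix construct's beads and at 109 and 89.8 CPM in its inputs. MDM4, a repressor of p53, was at 108 and 157 CPM after and 51.2 and 52.2 CPM before lamin B1 enrichment, and at 30.5 and 18.6 against 78.8 and 69.3 CPM with the matrix construct (2.13 ± 0.36, adjusted p = 2.63e-04). YOD1, a deubiquitinase, had a difference of 2.08 ± 0.35 (adjusted p = 2.55e-04). With the mitochondrial genome filling 39.8% and 34.2% of the matrix beads' counts, the scaling set the balance: with total counts 2153 genes were more and 27 less enriched with lamin B1, and the median over all genes was shifted by 0.85. In the 28-library fit, medians for the matrix construct were 0.29 for nuclear lncRNAs and 0.54 for detained-intron genes. The 12-library fit gave 1.05 and 0.73 for lamin B1. Taken gene by gene in the 28-library fit, the median difference was 0.66 for nuclear lncRNAs and 0.03 for detained-intron genes.

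In the authors' deposited table for this comparison, 462 genes were higher and 1230 lower at an adjusted p under 0.05. They held 185 of the 196 genes called higher here (94.4% of these and 40% of those in the authors' deposited table) and 469 of the 478 called lower (98.1% and 38.1%). No called gene had the opposite sign in the authors' deposited table. In the authors' deposited table FOS had an adjusted p of 0.0903 and FLNC one of 0.129.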

How the data were processed

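RNA of HEK293T cells with APEX2 fused to LMNB1 was measured in 12 libraries, of which the 4 APEX-only ones are described. The authors deposited whole-number counts for 57992 Ensembl gene IDs. Per the submitters' processing notes the build was GRCh38/hg38 and the tools included HTSeq 0.7.2 and HISAT2 2.1.0, with DESeq2, SAMtools and deepTools 2.5.3 listed too. No source used here gives the annotation or the strand setting. The authors' deposited log2 fold changes and adjusted p-values were used for comparison only. All values of the text other than those were computed from the deposited counts.

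The test was edgeR 4.0.16, run in R 4.3.3 (TMM, filterByExpr, robust quasi-likelihood test, Benjamini-Hochberg over all tested genes). The block was the replicate number within an arm, with 1 enrichment coefficient per arm; the matrix comparison used 28 libraries. The series design says that enriched and input libraries are the same biological replicates before and after enrichment, which gives the pairing. Deviations from group means correlated within a number at r = 0.348 (APEX only), 0.503 (s6G) and 0.0409 (unlabelled). Errors are standard errors from the fit. Symbols came from a table matched to Ensembl IDs, and coordinates, gene types and sequences from RefSeq (GRCh38.p14), matched by symbol. On simulated counts for 15878 genes the fit recovered 26% of 100 genes changed 2-fold and 90% of 100 changed 4-fold, with 10 false calls. The changed genes were drawn from those whose mean log2 CPM was 2 or more, so these rates do not cover weaker genes. No set test was made.

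Members and lists were chosen with earlier results of these data known. Named genes were LMNB1, MALAT1, NEAT1, MT-CO1 and MT-RNR2; from the called genes whose mean log2 CPM reached 4 and whose enriched and input CPM did not overlap, the 12 that rose and the 12 that fell the most (5 each for other comparisons, with no demand on overlap); and, from each list, up to 3 called genes in the direction most of its calls took and, where at least 2 were called the other way, up to 2 of those, ranked by size of change. Not all genes that the rule gives are printed. Alternatives were the block, the libraries of the fit, DESeq2 1.42.0, scaling, filter and leaving out a pair.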

Additional observations from a re-analysis of the deposited data

Results flagged for a closer look

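The enrichments of the lamin B1 and the mitochondrial matrix construct, both with biotin-phenol and no thionucleoside, differed in a test of the difference itself. A count of 66 genes was more and 58 less enriched with lamin B1. Less enriched, by log2 differences, were MT-CO1 (-5.69), MTCO1P12 (-5.61), MT-RNR2 (-4.30), MT-ND5 (-3.81) and MT-TP (-3.74). MTCO1P12 is a pseudogene of MT-CO1 in the nuclear genome, and reads of the pair may have been split between them. More enriched were ZNF121 (2.33), UBE2W (2.23), TMTC3 (2.20), MDM4 (2.13) and YOD1 (2.08).

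UBE2W and TMTC3 passed the test of the difference without passing that of lamin B1 enrichment in the 12-library fit. UBE2W, a ubiquitin-conjugating enzyme, was at 58.3 and 34.9 CPM after and 19.7 and 20.1 CPM before lamin B1 enrichment, and at 4.04 and 8.13 against 26.9 and 21.0 CPM with the matrix construct. TMTC3, a mannosyltransferase of the endoplasmic reticulum, was at 138 and 79.1 against 65.9 and 53.0 CPM, and at 13.2 and 13.4 against 64.3 and 60.6 CPM.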

How the results depend on the processing

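Genes higher and lower after APEX-only enrichment numbered 196 and 478. Without the replicate block the counts were 68 and 169, in a fit of the compared libraries with the block 2240 and 2791, with DESeq2 and the block 384 and 774, in the 28-library fit (added after seeing the data) 468 and 1000; with no filter 551 were higher, with a mean of at least 50 counts 338 were higher, and with total counts 155 were lower. Leaving out a pair gave 0 to 2112 higher and 0 to 3150 lower, the upper ends without the first unlabelled pair. The difference from the unlabelled arm called 0 genes, 124 with DESeq2, 9 with total counts and 347 with no filter, and 0 to 3116 when a pair was left out. The difference from the s6G arm called 0, 4105 in a fit of the compared libraries, 823 with DESeq2, 118 with RLE scaling, 122 with total counts, 856 with no filter and 329 at a mean of at least 50 counts. The difference from the matrix construct called 124 genes, 17 without the replicate block, 1153 in the compared libraries, 341 with DESeq2, 2180 with total counts and 26 to 43 when a pair was left out. The mitochondrial share difference ranged from -0.557 to -0.39 points. LMNB1 reversed to 0.04 with total counts. In the fits on lamin B1 libraries all 196 and 478 genes kept their sign, except under the filter of at least 50 counts, which gave 191 and 477. Genes that this filter removed had no estimate and were counted as not keeping their sign. Where a pair was left out, the lone pair was assumed to vary like the others. Except for fewer libraries or genes, the cause was not tested. Of 102 named genes, 62 lost their call without the block, 29 with total counts and 4 with RLE scaling. Counts simulated from these libraries let 26% of 2-fold changes be recovered, among genes whose mean log2 CPM was 2 or more.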

Other observations

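Transcripts named for lying inside an intron of another gene (symbols ending in -IT and a number) were looked at after their values were seen. Of 14 tested, 2 were called higher (14.3%, against 1.19% of all tested genes) and 0 lower. A positive estimate was found for 12 of them, and for 8700 of all 16525 tested genes. The median log2 change was 1.58, against 0.04 for all tested genes, and it was 0.5 in the unlabelled arm. ANKRD10-IT1 was at 14.6 and 19.8 CPM after and 3.37 and 2.45 CPM before enrichment (2.41 ± 0.47, adjusted p = 0.0277), and N4BP2L2-IT2 at 5.38 and 9.97 against 0.886 and 1.14 CPM (2.72 ± 0.62, adjusted p = 0.0410). Their unlabelled estimates were -0.77 and 1.85. NPTN-IT1 was at 11.7 and 11.4 against 3.01 and 3.26 CPM and was not called (adjusted p = 0.0980). The other 11 were under 4 CPM in all 4 libraries. Reads from an unspliced host transcript cannot be told apart from these transcripts in the counts.

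The inputs of the arms differed in immediate-early RNAs, also chosen after their values were seen. FOS was at 15.9 and 7.50 CPM in the APEX-only inputs, 2.81 and 1.83 CPM in the unlabelled and 9.40 and 5.04 CPM in the s6G inputs. EGR1 was at 12.6 and 10.6, 3.07 and 4.32, and 14.3 and 13.8 CPM in the same order. FOSB was at 13.99 and 10.1, 3.58 and 3.16, and 9.17 and 8.73 CPM. JUN was at 311 and 316 CPM in the APEX-only, 246 and 296 CPM in the unlabelled and 867 and 936 CPM in the s6G inputs. These 4 are part of 11 such genes looked at. For them every input of the APEX-only and s6G arms was above both unlabelled inputs. That was not so for others: NR4A1 was at 4.47 and 8.15 CPM and JUNB at 12.9 and 11.8 CPM in the s6G inputs, below 12.5 and 21.8 and 14.6 and 21.8 CPM in the unlabelled ones, and EGR2 and IER2 overlapped.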
